A study of Mus musculus with 12 samples.

Results

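Bone morphogenetic proteins (BMPs) are secreted ligands that oppose the formation of oligodendrocytes from their precursors, and this account follows 10 genes of their pathway through the response of an oligodendroglial cell line to 2 treatments. The genes were the ligands Bmp2, Bmp4, Bmp6 and Bmp7, the receptors Bmpr1a and Bmpr1b, the inhibitory Smads Smad6 and Smad7, the secreted antagonist Nog and the pseudoreceptor Bambi. They were chosen by name, and every array feature annotated to one of them was used. The 10 genes had 22 listed features, of which 13 carried a value on every array. These 13 features stood for 9 of the 19087 genes measured on the arrays. Smad7 had no listed feature and was not analysed here. The 9 features without a value on any array were all annotated to Bambi, which had 11 listed features and 2 measured ones. Bmp6, Bmp7 and Bmpr1a also had 2 measured features each, and the remaining 5 genes had 1.

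A BMP ligand brings together type I and type II receptors, which are kinases, and the type I receptor then phosphorylates Smad1, Smad5 and Smad9. These enter the nucleus with Smad4 and act on target genes, among which the Id genes are the best known. In precursor cells of the oligodendrocyte lineage, BMP signalling is known to hold back differentiation and to favour an astrocytic fate, and Id2 and Id4 are known to bind Olig1 and Olig2. The pathway limits itself: Smad6 and Smad7 block the receptor Smads, Nog binds ligands outside the cell, and Bambi resembles a type I receptor without a kinase.

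The cells were Oli-neu, an oligodendroglial line from the mouse, and in every group they stably carried PLP-EGFP, a myelin protein fused to a green fluorescent protein. RNA of cells kept 16 h in conditioned neuronal medium, taken from primary cultures enriched in neurons, was hybridised with RNA of untreated parallel cultures on 6 arrays. In a further 6 arrays the treatment was 16 h of the small molecule Y27632, again against untreated parallel cultures. In each experiment the treated RNA carried Cy3 on 3 arrays and Cy5 on the other 3. The sample labels call the treatments neuron and Y27631, and the submitters' design text places neurons in the cultures, so the names used here are those of the study's methods. The submitters call the first 6 arrays technical replicates, and nothing in the sources ties an array to a culture of its own, so a p-value here covers only the scatter from array to array.

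The deposited value of a feature is a standardized log ratio whose base and scaling are not given, and each array has a standard deviation of 1. Values are therefore printed in SD units, as treated over untreated, and not as folds. A value of 1 lies 1 standard deviation of that array's log ratios above 0. Values on every array were present for 41230 of 44290 features. Over these, arrays that shared a dye orientation had a Pearson r from 0.859 to 0.890 in the experiment with conditioned medium and from 0.731 to 0.809 in that with Y27632. For arrays of opposite orientation r ran from 0.249 to 0.296 and from -0.262 to -0.120. A large share of the values thus went with the dye and not with the treatment. The array values or means of both orientations are given for many features, but not for every feature whose orientations part. A mean printed alone need not be alike in both. The adjusted p-values below are from limma with a dye term and Benjamini-Hochberg adjustment over all 41230 features. They rest on the spread within an orientation, while the SDs printed after ± hold the gap between orientations too. An exact sign-flip permutation test over 6 arrays, two-sided, can give no p below 0.03125, the value it takes when all 6 arrays have the same sign.

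In conditioned neuronal medium, 3 of the 13 features passed the test, 1 higher and 2 lower, while 60.5% of all features passed (27.8% higher, 32.7% lower). With Y27632, 3 features passed, 2 higher and 1 lower, beside 36.9% of all features (19.2% higher, 17.6% lower). The share of BMP features that passed was below that of all features in both experiments. At a size of at least 1 SD unit, 2 features passed in conditioned medium, those of Bmp2 and Bambi, against 12.4% of all features. With Y27632 only the feature of Bambi did, against 8.07%. The median of the 13 features was 0.04 in conditioned medium and 0.14 with Y27632, beside medians of -0.06 and -0.01 over all features. In the plot of values by array the means of most features lie within 1 SD unit of 0, while single arrays of most genes lie farther out. The orientations often lie on either side of 0, and a Bambi feature stands apart from the rest.

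**Figure D1:**
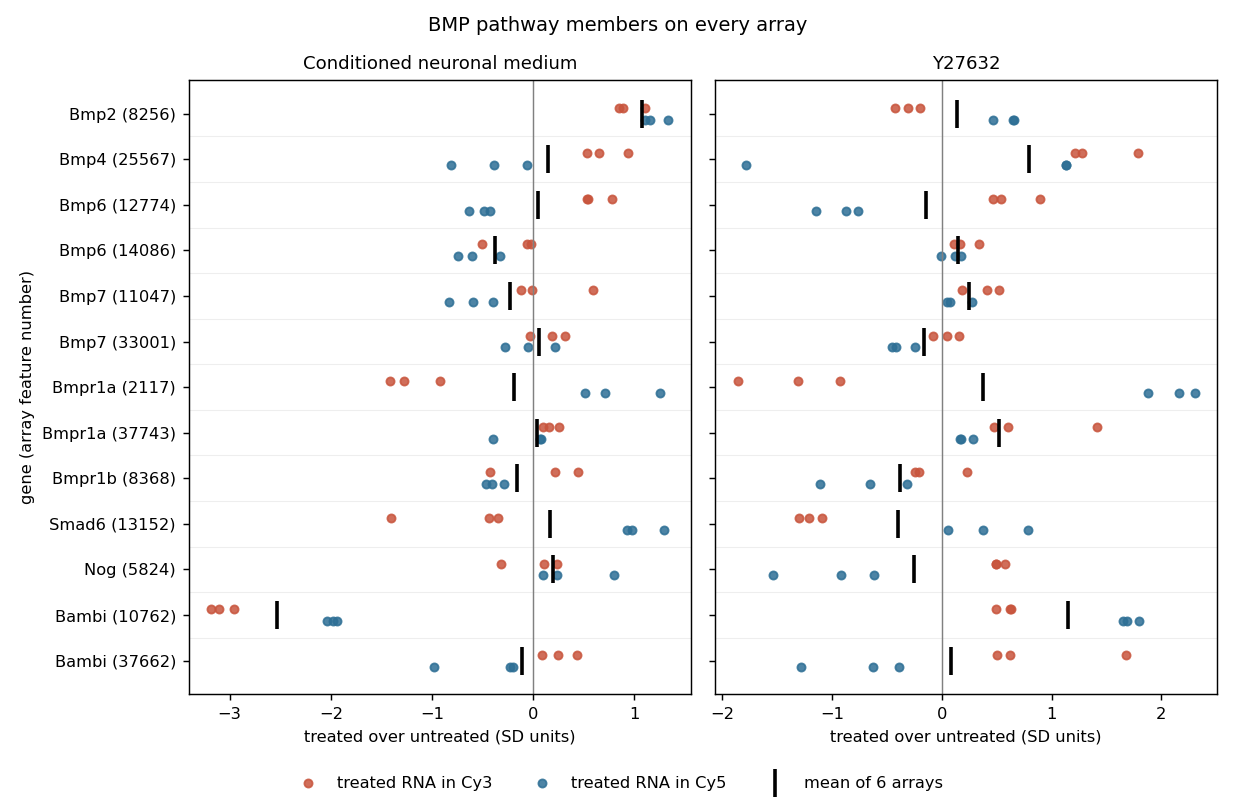
Values of the 13 BMP features on the 6 arrays of each experiment (x axis, treated over untreated in SD units; each panel has its own scale), with the treated RNA in Cy3 or in Cy5 shown by colour and the mean of the 6 arrays as a bar. Bambi (10762) lies between -3.18 and -1.94 in conditioned neuronal medium and between 0.49 and 1.79 with Y27632, and Bmp2 lies above 0 on every array of the first experiment.

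To show regulatory sequence next to genes with a large response and with a small one, promoter windows are printed for 4 genes. Id2 and Id4 are among the targets with large changes below, and the means of Id3 and Smad6 stayed within 0.5 SD units of 0. Of 14 genes looked for, 8 had a window used. Atoh8, a target that also fell strongly in conditioned medium, was not among the genes looked for. Id1, another such target, had no window in the search. Nor had Bmp2, Bmp7, Smad7, Nog and Bambi. The windows are from RefSeq on GRCm38.p6. They run from 250 bases before to 50 bases after a transcription start, on the strand of the gene. The search covered both strands for GGCGCC, a GC-rich element that BMP Smads can bind, and for CAGAC or its reverse complement GTCTG, the short Smad box, and capitals mark the matches. GGCGCC was present in 11.9% of 32851 windows of this length and CAGAC or GTCTG in 49.6%. The windows lie at chr12:25096043-25096342 (minus strand) for Id2, chr13:48260866-48261165 (plus) for Id4, chr4:136143572-136143871 (plus) for Id3 and chr9:64022010-64022309 (minus) for Smad6.
Id2: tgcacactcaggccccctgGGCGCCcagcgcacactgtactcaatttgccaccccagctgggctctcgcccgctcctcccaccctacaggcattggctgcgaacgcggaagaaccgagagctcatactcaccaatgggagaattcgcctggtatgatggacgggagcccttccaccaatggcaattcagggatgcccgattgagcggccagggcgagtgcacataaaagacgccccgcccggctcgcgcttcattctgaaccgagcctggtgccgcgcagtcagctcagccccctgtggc
Id4: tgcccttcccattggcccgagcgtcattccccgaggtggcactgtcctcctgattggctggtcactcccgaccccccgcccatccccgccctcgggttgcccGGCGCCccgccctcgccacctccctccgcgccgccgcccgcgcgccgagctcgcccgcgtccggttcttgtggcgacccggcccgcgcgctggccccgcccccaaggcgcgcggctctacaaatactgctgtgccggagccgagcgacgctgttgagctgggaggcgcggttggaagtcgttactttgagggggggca
Id3: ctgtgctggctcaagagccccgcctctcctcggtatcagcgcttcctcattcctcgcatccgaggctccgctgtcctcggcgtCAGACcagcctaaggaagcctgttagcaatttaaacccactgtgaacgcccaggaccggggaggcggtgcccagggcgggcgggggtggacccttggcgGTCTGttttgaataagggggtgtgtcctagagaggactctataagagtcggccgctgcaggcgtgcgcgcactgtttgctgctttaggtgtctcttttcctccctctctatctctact
Smad6: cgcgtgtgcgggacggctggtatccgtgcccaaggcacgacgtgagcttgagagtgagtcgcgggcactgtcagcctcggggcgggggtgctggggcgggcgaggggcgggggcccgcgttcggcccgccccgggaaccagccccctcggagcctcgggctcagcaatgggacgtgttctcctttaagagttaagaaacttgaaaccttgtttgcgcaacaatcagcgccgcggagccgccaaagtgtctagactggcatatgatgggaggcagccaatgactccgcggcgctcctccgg
Id2 and Id4 each held GGCGCC once, 231 and 148 bases before the start, and neither held the short box. Id3 held the short box at 2 places and no GGCGCC, and the window of Smad6 held neither. Among the other members with a window, Bmpr1a held GGCGCC once, Bmp6 and 2 of 3 windows of Bmpr1b held the short box once, and Bmp4 held neither. These matches describe the letters of 1 window per start and are no evidence of binding. Whether a match goes with a large response was not tested.

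Among the ligands, the largest change past the test was that of Bmp2 in conditioned neuronal medium. Bmp2 (chr2:133552159-133562896) encodes a potent activator of the pathway that signals through Bmpr1a and Bmpr1b. In conditioned neuronal medium its feature read 0.85, 1.11 and 0.89 where Cy3 marked the treated RNA (written below as in Cy3) and 1.16, 1.34 and 1.11 where Cy5 did (in Cy5). All 6 arrays were above 0 and the orientation means, 0.95 and 1.20, lay close together. Bmp2 rose by 1.07 ± 0.18 SD units (limma, adjusted p = 4.1e-06; exact sign-flip p = 0.03125), which placed it 2449th from the highest of all features. With Y27632 the same feature read 0.46, 0.66 and 0.65 in Cy5 and -0.43, -0.31 and -0.20 in Cy3. These orientations lay on opposite sides of 0, and the mean of 0.14 ± 0.50 did not pass (limma, adjusted p = 0.312).

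Bmp4 (chr14:46383525-46390669) encodes the ligand closest to Bmp2 in sequence and is much used to turn precursor cells toward astrocytes. In conditioned medium it read 0.94, 0.65 and 0.53 in Cy3 and -0.39, -0.81 and -0.06 in Cy5, so its sign followed the dye, and its mean was 0.14 ± 0.68 (limma, adjusted p = 0.284). With Y27632 it read 1.13, 1.13 and -1.78 in Cy5 and 1.28, 1.21 and 1.79 in Cy3. Array 3 stood alone below 0 and the other 5 lay above 1. The mean was 0.79 ± 1.29 and did not pass (limma, adjusted p = 0.112), while without array 3 it was 1.28 and passed.

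Bmp6 (chr13:38345716-38500314) and Bmp7 (chr2:172868012-172940321) encode ligands of a further subgroup that also use the receptor Acvr1. The Bmp6 feature 14086 read -0.06, -0.51 and -0.02 in Cy3 and -0.61, -0.74 and -0.33 in Cy5 in conditioned medium. Every array was below 0, and the feature fell by 0.38 ± 0.29 (limma, adjusted p = 0.0084; exact sign-flip p = 0.03125). The other Bmp6 feature, 12774, read 0.53 to 0.78 in Cy3 and -0.63 to -0.43 in Cy5, with a mean of 0.05 (limma, adjusted p = 0.602), so the fall of the first was not shared by the second. Without the dye term the fall of the first did not pass either. With Y27632 the 2 features had means of 0.15 ± 0.11 and -0.15 ± 0.88 (limma, adjusted p = 0.272 and 0.343). Both Bmp7 features missed the threshold in both experiments. The Bmp7 feature 11047 averaged -0.23 ± 0.50 in conditioned medium and 0.25 ± 0.19 with Y27632, where it read 0.05, 0.08, 0.28, 0.52, 0.18 and 0.41 and so lay above 0 on all 6 arrays (limma, adjusted p = 0.0886; exact sign-flip p = 0.03125). Such agreement of sign over 6 arrays was met by 19.1% of all features with Y27632 and by 31.2% in conditioned medium, and by 3 of the 13 BMP features in each. The Bmp7 feature 33001 averaged 0.06 and -0.16.

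The receptors showed small means, and the 2 features of Bmpr1a differed in how strongly they followed the dye. Bmpr1a (chr14:34411061-34503336) and Bmpr1b (chr3:141837135-142169585) encode the type I receptors through which Bmp2 and Bmp4 act. The Bmpr1a feature 2117 read -1.42, -0.92 and -1.28 in Cy3 and 0.51, 1.26 and 0.72 in Cy5 in conditioned medium. With Y27632 it read 2.30, 1.88 and 2.17 in Cy5 and -1.31, -0.93 and -1.86 in Cy3. In both experiments the sign of this feature was that of the dye, above 0 with the treated RNA in Cy5 and below 0 in Cy3. Its means of -0.19 and 0.38 did not pass (limma, adjusted p = 0.185 and 0.0632). The other feature, 37743, lay near 0 in conditioned medium, with a mean of 0.04 ± 0.23 (limma, adjusted p = 0.707). With Y27632 it read 0.29, 0.18 and 0.16 in Cy5 and 0.60, 0.47 and 1.42 in Cy3, all above 0. It rose by 0.52 ± 0.47 (limma, adjusted p = 0.0181; exact sign-flip p = 0.03125), and by 0.37 without array 6, the highest. It did not pass without array 1 or without the dye term. Bmpr1b averaged -0.15 ± 0.39 in conditioned medium (limma, adjusted p = 0.268) and -0.38 ± 0.46 with Y27632, where it ranged from -1.11 to 0.23 (limma, adjusted p = 0.0523).

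Smad6 (chr9:63953076-64022085), which the pathway induces and which then blocks the receptor Smads, took its sign from the dye. In conditioned medium it read -0.35, -1.40 and -0.44 in Cy3 and 1.29, 0.98 and 0.93 in Cy5, with a mean of 0.17 ± 1.06 (limma, adjusted p = 0.313). With Y27632 it read 0.38, 0.06 and 0.79 in Cy5 and -1.09, -1.21 and -1.30 in Cy3. The orientations did not overlap in either experiment, and in both the arrays with the treated RNA in Cy3 were the lower ones. The mean with Y27632, -0.40 ± 0.91, passed the limma test with its dye term (adjusted p = 0.0311) although only 3 of 6 arrays were below 0 (exact sign-flip p = 0.344). It did not pass without the dye term, nor when any 1 array other than array 3 was left out. Nog (chr11:89300638-89302559) encodes noggin, which binds Bmp2, Bmp4 and Bmp7 outside the cell. It read 0.11, -0.32 and 0.24 in Cy3 and 0.80, 0.24 and 0.10 in Cy5 in conditioned medium, with a mean of 0.20 ± 0.36 (limma, adjusted p = 0.172). With Y27632 it read -1.54, -0.62 and -0.92 in Cy5 and 0.50, 0.58 and 0.49 in Cy3, and the mean was -0.25 ± 0.90 (limma, adjusted p = 0.177). For Nog, too, the orientations of the second experiment had opposite signs.

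**Figure D2:**
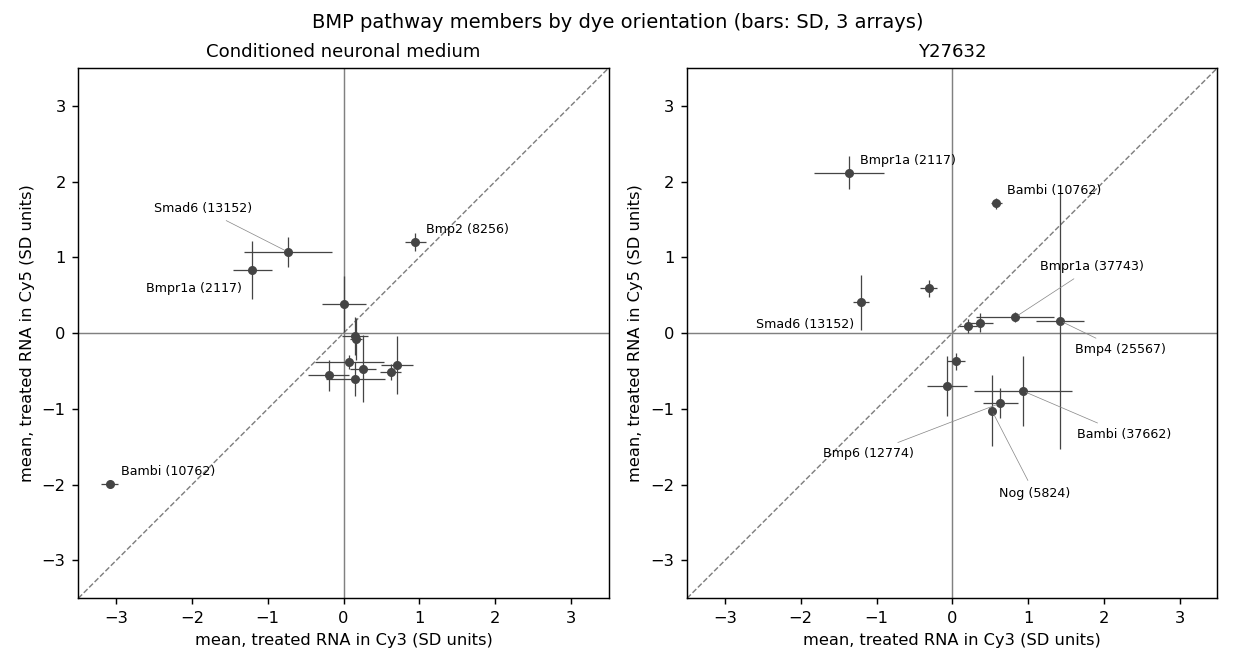
Mean of the 3 arrays with the treated RNA in Cy3 (x axis) against that of the 3 arrays with it in Cy5 (y axis), in SD units, for the 13 BMP features, with bars for the SD over 3 arrays and a dashed line of equality; features beyond 0.8 SD units on an axis are named. Bambi (10762) lies in the lower left quadrant in conditioned neuronal medium and in the upper right with Y27632, while Bmpr1a (2117) and Smad6 lie in the upper left in both.

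The orientation means had opposite signs for 9 of the 13 features in conditioned medium and for 7 with Y27632, where 47.5% and 58.5% of all features did. The dye term itself passed the limma test for 7 features in each experiment, beside 57.6% and 52.1% of all features. BMP features whose orientations had opposite signs thus stood among many such features of the arrays.

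Bambi (chr18:3507011-3516404) had the largest values among the members. It encodes a membrane protein that binds ligands and receptors but cannot signal, and it is itself a target of BMP signalling. In conditioned neuronal medium the feature 10762 read -3.18, -3.11 and -2.96 in Cy3 and -1.94, -1.98 and -2.04 in Cy5. All 6 arrays were far below 0, in groups 1.10 apart that followed the dye. Bambi fell by 2.54 ± 0.61 (limma, adjusted p = 1.5e-08; exact sign-flip p = 0.03125), the 164th lowest of all features. Of all features, 0.791% were lower by at least 2 SD units and passed. With Y27632 the same feature read 1.79, 1.69 and 1.65 in Cy5 and 0.62, 0.63 and 0.49 in Cy3. Every array was above 0, and Bambi rose by 1.15 ± 0.62 (limma, adjusted p = 5.3e-05; exact sign-flip p = 0.03125), ranking 1132nd from the highest. The second measured feature, 37662, did not follow. It read 0.25, 0.43, 0.08, -0.23, -0.98 and -0.20 in conditioned medium and -0.63, -0.39, -1.28, 0.50, 0.62 and 1.68 with Y27632. Its signs were those of the dye in both experiments, and its means of -0.11 and 0.08 did not pass (limma, adjusted p = 0.451 and 0.756). Which part of the transcript each feature binds is not given in the sources used here.

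A direct test of conditioned medium minus Y27632 on all 12 arrays passed for 7 of the 13 features, 2 higher and 5 lower, beside 46.3% of all features (22.1% higher, 24.2% lower). The experiments were scaled apart and may share untreated RNA, so their SD units need not be of equal size. Bambi differed most, by -3.68 ± 0.11 (SE; limma, adjusted p = 7.5e-11), since it fell in one treatment and rose in the other. It was the only member with a difference of at least 1 SD unit, and 8.11% of all features were lower by that much. Bmp2 was higher in conditioned medium by 0.93 ± 0.12 (SE; limma, adjusted p = 2.5e-05). The other 5 differences had sizes from 0.48 to 0.57. They were -0.53 for Bmp6 (14086), -0.48 for Bmp7 (11047), -0.56 and -0.48 for the Bmpr1a features and 0.57 for Smad6, with adjusted p-values by limma from 0.00565 to 0.0341. None of these 5 passed without the dye terms, and of them only Bmp6 passed with each replicate number left out in turn. For Bmp4 the difference of -0.65 had a standard error of 0.41 and did not pass (limma, adjusted p = 0.222).

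**Figure D3:**
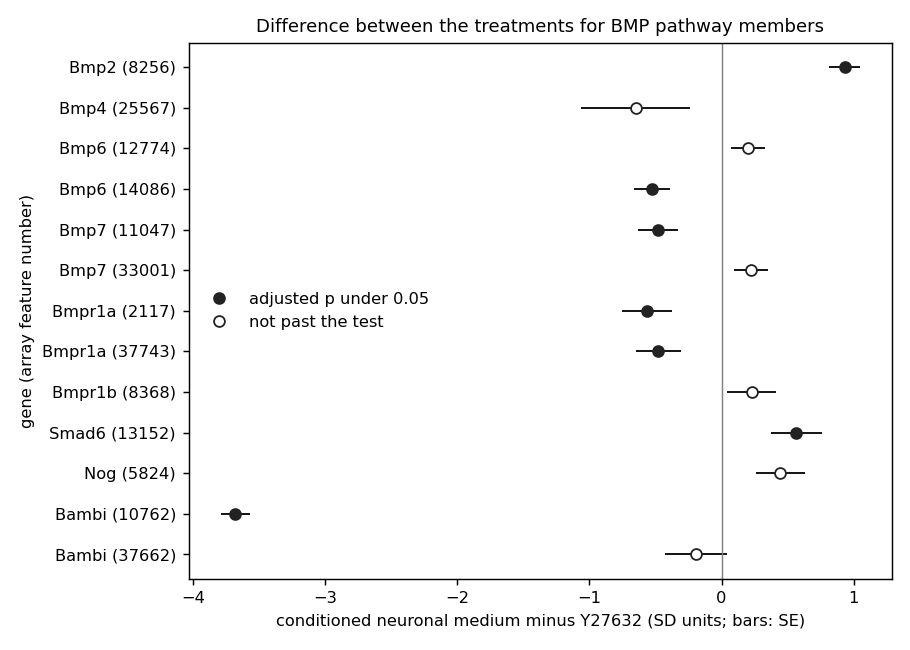
Difference between the treatments for the 13 BMP features (x axis, conditioned neuronal medium minus Y27632 in SD units), with bars for the standard error of the fit on 12 arrays and filled points where limma's adjusted p was under 0.05. Bambi (10762) lies at -3.68 and Bmp2 at 0.93, and all other features lie between -0.65 and 0.57.

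The patterns over 12 arrays most like that of Bambi (10762) were those of Dcpp1, Ppfibp2, Fxyd3, Serpinb1c and Inka1, with Pearson r from 0.994 to 0.998. Within the 6 arrays of conditioned medium r was from 0.966 to 0.995, and within the 6 of Y27632 from 0.930 to 0.990. These arrays share their dye orientations, and 1127 features had an r over 0.9. A Pearson r takes no account of level, and the means of the 5 genes differed from those of Bambi. Dcpp1, with the highest r, averaged -0.61 in conditioned medium and 3.395 with Y27632. The most negative of the 5 in conditioned medium was Fxyd3, which averaged -4.34 there and 3.63 with Y27632.

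Among targets of the pathway, a list of 16 genes with 15 measured, 17 of 22 features fell in conditioned neuronal medium, 3 rose and 2 did not pass, while 32.7% of all features fell. The median of these 22 features was -0.62, beside -0.06 over all features. The list was chosen with earlier results of these data known, among them the falls of Id2 and Id4, and is no independent evidence of a direction. It was lower in 14 to 16 features when any 1 array was left out. From the 3 arrays in Cy3 alone 11 features passed as lower, beside 24.8% of all features, and from the 3 in Cy5 alone 18 did, beside 33.9%.

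The Id genes, which encode inhibitors of basic helix-loop-helix transcription factors, led this list. The Id2 feature 5336 read -7.34, -6.79 and -6.29 in Cy3 and -5.06, -5.42 and -5.08 in Cy5 in conditioned medium, with a mean of -5.995 ± 0.96 (limma, adjusted p = 2.4e-09). The Id2 feature 3375 lay between -3.70 and -3.22, with a mean of -3.50 ± 0.17 (limma, adjusted p = 5.2e-09). The third, 40030, read 2.03, 2.40 and 2.03 in Cy3 and -0.68, -0.35 and -0.53 in Cy5, and its mean of 0.82 ± 1.47 passed as higher with the dye term (limma, adjusted p = 4.2e-05) and not without it. It was the only one of the 3 whose orientations had opposite signs. Both features of Id1 fell, with means of -3.05 ± 0.70 and -3.02 ± 0.37, and so did both of Id4, with means of -2.75 ± 1.02 and -2.81 ± 0.26. Each of these 4 lay below 0 on all 6 arrays. Id3 (43462) averaged -0.21 ± 0.23, close to the threshold (limma, adjusted p = 0.0494), and did not pass when any array was left out. Atoh8, a further helix-loop-helix target, fell by 2.55 ± 0.30.

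**Figure D4:**
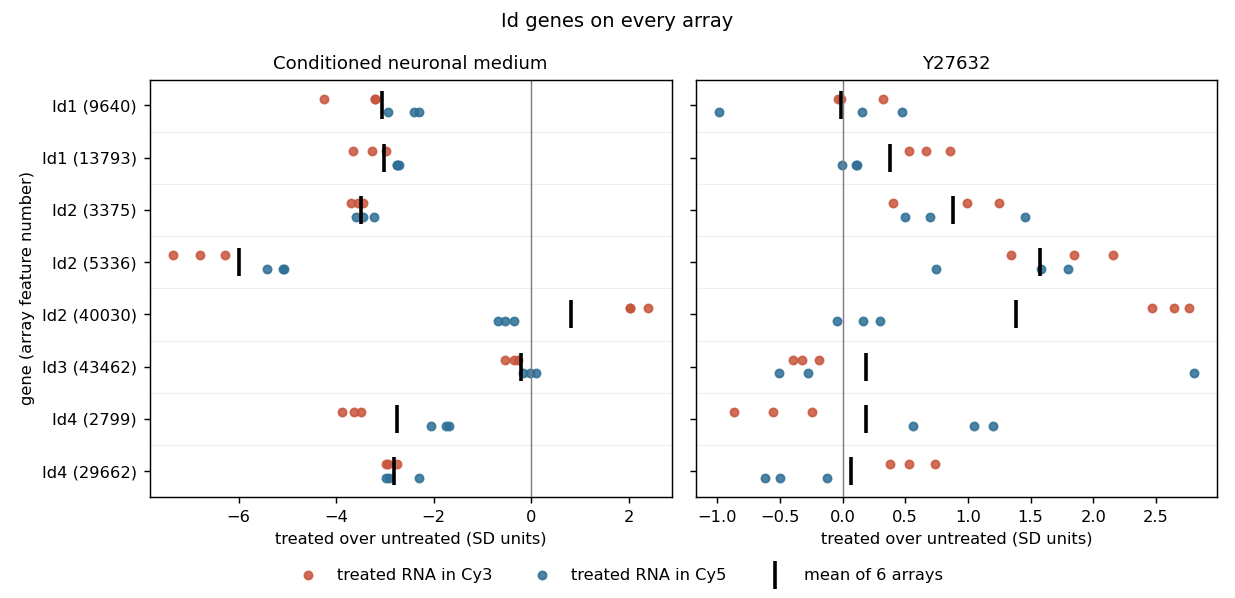
Values of the 8 features of Id1 to Id4 on the 6 arrays of each experiment (x axis, treated over untreated in SD units; each panel has its own scale), with the treated RNA in Cy3 or in Cy5 shown by colour and the mean of 6 arrays as a bar. In conditioned neuronal medium both features of Id1, both of Id4 and 2 of Id2 lie below 0 on every array, and with Y27632 the same 2 features of Id2 lie above 0 on every array.

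With Y27632, 5 of the 22 target features were higher, 3 lower and 14 did not pass, beside 19.2% of all features higher and 17.6% lower, and their median was 0.09. By the mean over features, Id2 was the most changed gene of the list past the test here. Its features averaged 1.58 ± 0.49, 0.88 ± 0.42 and 1.38 ± 1.37 (5336, 3375 and 40030), and all 3 passed as higher (limma, adjusted p from 3.2e-05 to 0.0030), the last of them only with the dye term. Id1 averaged -0.01 (9640) and 0.38 (13793), of which the second passed with the dye term (limma, adjusted p = 0.0178) and not without it. Id4 averaged 0.19 (2799) and 0.07 (29662) and did not pass (limma, adjusted p = 0.295 and 0.681). Id3 averaged 0.18 ± 1.29, where array 1 read 2.80 and the other 5 lay from -0.51 to -0.19, so the sign of its mean was that of a single array. The difference between the treatments passed as lower in conditioned medium for 14 of the 22 target features and as higher for 3, with -7.57 for Id2 (5336). The 14 and 3 compare with 24.2% and 22.1% of all features.

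The rest of the pathway did not move in 1 direction. A list of 18 genes held other BMP and GDF ligands and, by its name, the protease gene Bmp1. Of its 22 features, 6 rose and 7 fell in conditioned medium, and 5 rose and 2 fell with Y27632. All features rose and fell in shares of 27.8% and 32.7% in the first and 19.2% and 17.6% in the second, which also hold beside the counts of the lists that follow. Nodal, a ligand of the activin arm, rose in both, by 1.45 and 1.57. Bmp8a rose by 1.15 and 0.95. Mstn, which encodes myostatin, rose by 1.40 in conditioned medium and fell by 0.70 with Y27632, and Bmp10 fell by 0.97 in conditioned medium, though the orientation means of these last 2 values had opposite signs. Bmp1, a protease that cleaves the antagonist chordin and is no BMP ligand, rose with Y27632 by 1.472 and 1.503 in its 2 features. Both also rose in conditioned medium, each by 0.60, so these 2 features are among the rises counted above in each experiment.

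Among 25 features of 12 other receptors and co-receptors, 7 rose and 8 fell in conditioned medium, and 7 rose and 3 fell with Y27632. Acvrl1, the type I receptor for BMP9 and BMP10 best known from endothelium, read -3.64, -3.11, -2.89, -3.13, -3.23 and -3.16 in conditioned medium. It lay far below 0 on every array and fell by 3.19 ± 0.25 (limma, adjusted p = 2.0e-08). With Y27632 it averaged -0.77 ± 0.84 and did not pass (limma, adjusted p = 0.0541). Acvr1, a type I receptor for Bmp6 and Bmp7, fell by 0.72 ± 0.17 in conditioned medium and rose by 1.28 ± 0.36 with Y27632, a difference of -1.998 (limma, adjusted p = 4.7e-07). Its arrays lay from -0.93 to -0.57 in the first and from 0.82 to 1.76 in the second. Of the 4 features of the co-receptor gene Neo1, 1 rose in conditioned medium, by 3.12, and the others lay between -0.02 and 0.07. With Y27632 the 4 features of Neo1 lay from -0.12 to 2.065, with a mean of 0.73.

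The 13 features of the 6 signalling Smads split evenly, with 4 higher and 4 lower in each experiment. Smad3, which serves TGF-beta and activin, had features at -1.10, -0.91 and -0.02 in conditioned medium, of which those at or beyond -0.91 passed. Smad1, a direct carrier of the BMP signal, fell with Y27632 by 0.65 and 0.91 in its 2 features. Of 24 features of secreted antagonists, 7 rose and 8 fell in conditioned medium, and 6 rose and 3 fell with Y27632. Chrd, which encodes the BMP antagonist chordin, rose by 2.04 ± 0.55 in conditioned medium (limma, adjusted p = 1.2e-07) and averaged 0.21 with Y27632 (limma, adjusted p = 0.317). Chrdl2, a relative of chordin, fell by 1.53 ± 0.27 and rose by 1.43 ± 0.48 in the same order, each on all 6 arrays.

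Intracellular regulators had 13 features higher, 13 lower and 12 not passed of 38 in conditioned medium, and 7, 10 and 21 with Y27632. The ubiquitin ligase Smurf1, which marks BMP Smads and receptors for degradation, fell in both features in conditioned medium, by 0.91 and 1.21. Tob1, a repressor of BMP Smads, fell by 1.65 ± 0.89 there. Nedd4l, a ligase that acts on Smad2 and Smad3, averaged 1.01 over its 2 features in conditioned medium and -1.13 with Y27632. In the TGF-beta arm, 8 of 20 features rose and 7 fell in conditioned medium, and 6 rose and 4 fell with Y27632. Inhba, which encodes a subunit of activin, rose by 1.35 in conditioned medium. The plot by gene list shows that in conditioned medium the targets were the list with the median farthest from 0.

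**Figure D5:**
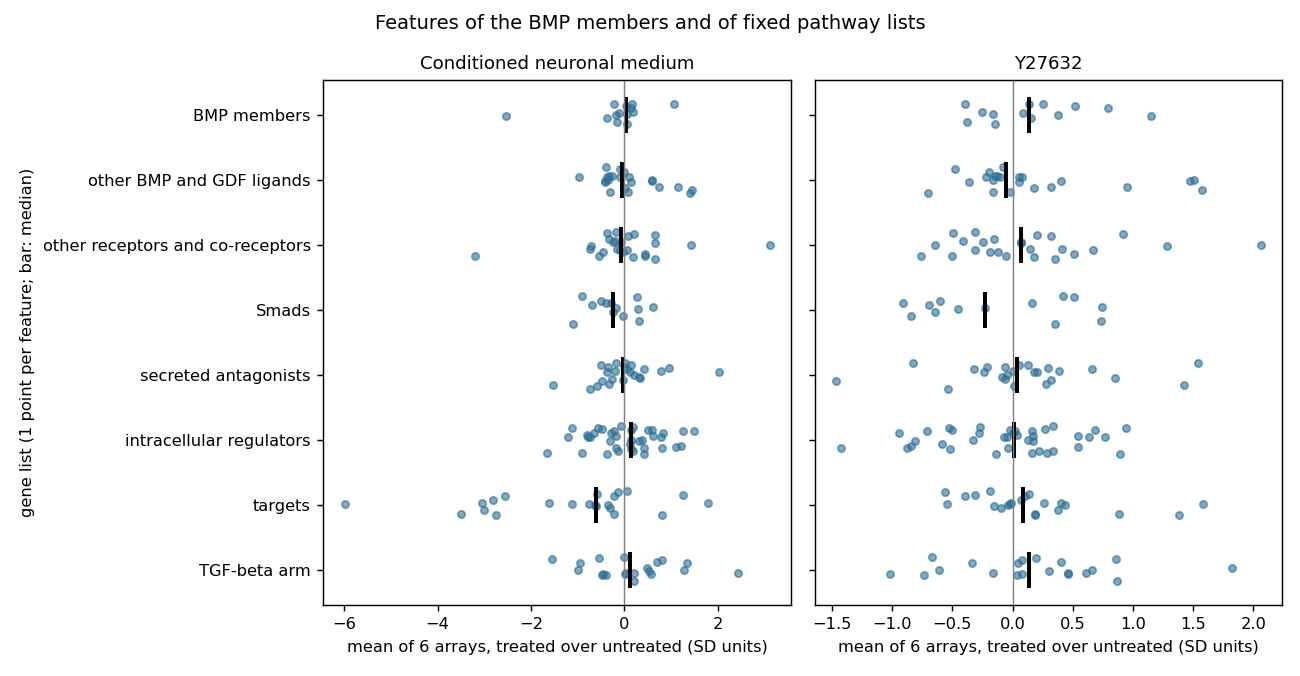
Mean of 6 arrays for every measured feature of the BMP members and of 7 other lists of the pathway (x axis, treated over untreated in SD units; each panel has its own scale), with 1 point per feature and the median of a list as a bar. In conditioned neuronal medium the median of the targets lies at -0.62 and those of the other lists between -0.24 and 0.13, while with Y27632 all medians lie between -0.23 and 0.14.

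The values are ratios and hold no level, so whether the defining markers of Oli-neu cells were present could not be read from them. Of 23 features of oligodendrocyte lineage markers, 13 rose and 4 fell in conditioned medium, where 27.8% and 32.7% of all features did. By the mean over a gene's features, Olig1 led at 5.44, then Cnp, an enzyme of myelin, at 5.32. The 2 features of Olig2 averaged 1.51 and 6.36 in that medium, and the second was the highest of the 23. At least 1 SD unit was reached by 10 of the rises and 2 of the falls there, and the lowest feature averaged -1.56. With Y27632, 8 rose and 4 fell, beside 19.2% and 17.6% of all features. Of these, 7 rises and 1 fall reached 1 SD unit, and the lowest feature averaged -1.38. Astrocyte markers, which BMP signalling is known to raise, had 7 of 28 features higher and 13 lower in conditioned medium, and 15 higher and 3 lower with Y27632, beside the same shares of all features. The 3 features of Gfap, which encodes the astrocytic filament protein, fell in the first, with means of -2.70, -3.60 and -2.52, and rose by 2.86, 2.13 and 0.76 in the second. Gja1, which encodes a gap junction protein of astrocytes, went the other way in conditioned medium and rose by 1.32. Neuron markers had 12 of 29 features higher and 6 lower in conditioned medium, and 3 higher and 10 lower with Y27632, where 27.8% and 32.7% of all features did in the first and 19.2% and 17.6% in the second. The 2 features of Nefl, a neurofilament gene, read -0.25 and 6.41 in conditioned medium and -1.83 and -3.33 with Y27632, so only 1 of them was higher in the first. A change in the share of cells of a type and a change in RNA per cell cannot be told apart here, and the part of RNA from other cells in the values of the BMP genes was not tested.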

How the data were processed

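RNA was measured on 12 Agilent 44 K mouse arrays of 2 colours, 6 per treatment with a dye swap. The deposited values are scores, standardized log ratios that the authors made from the channel intensities after loess normalization, with dye-swapped arrays already turned to a common direction. Their scale and log base are not stated. Every sign was reversed here because up-regulated genes in the study's tables were negative: after reversal, 28 of 30 genes with 1 feature in conditioned medium and 14 of 14 with Y27632 had the tabulated sign. The direction thus rests on those tables.

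Gene names came from GEO's platform annotation, updated to current symbols (31906 of 32089 listed rows matched). Gene coordinates and promoter windows are from RefSeq on GRCm38.p6, and the build behind the arrays is not given in the sources used here. The experiments were fitted separately in limma 3.58.1 (R 4.3.3), each with an intercept and a dye term over 41230 features, with Benjamini-Hochberg adjustment and a threshold of 0.05, and the difference on 12 arrays with a dye term per experiment. The code was tested on simulated data. Errors after ± are SDs over 6 arrays unless called SE. Precision is limited by the number of arrays, and signal over background is unknown. Alternatives were other centring, scaling and moderation, no dye term, each dye orientation alone, gene means, size thresholds, a replicate block and leaving out each array.

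Members and lists were chosen with earlier results of these data known. All members are named with all measured features. Id1 to Id4 are always named, from each list up to 4 genes with the largest mean among those with a feature past the test, and the 5 genes most like the largest member. The second features, array values and Y27632 or medium values given beside them for comparison were chosen after they were seen. Numbers in parentheses after a gene are feature numbers of the array.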

Additional observations from a re-analysis of the deposited data

Results flagged for a closer look

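Each value here is in SD units, treated over untreated. A sample far from the others of its group was found for 2 genes, and chance alone marks about 1 in 20 groups. Bmp4 on array 3 with Y27632 read -1.785, while the other 5 arrays lay from 1.13 to 1.79. Bmpr1a (37743) on array 6 read 1.42 with Y27632, with the others from 0.16 to 0.60, and -0.40 on array 6 in conditioned neuronal medium, with the others from 0.07 to 0.25.

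Between the treatments, 7 BMP features differed by limma's test on 12 arrays. Conditioned medium minus Y27632 was -3.68 for Bambi (10762), 0.93 for Bmp2, 0.57 for Smad6, -0.53 for Bmp6 (14086), -0.48 for Bmp7 (11047), and -0.56 (2117) and -0.48 (37743) for Bmpr1a. Of these, the Bmpr1a feature 2117 and Smad6 had orientation means of opposite sign in both experiments.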

How the results depend on the processing

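The fall of Bambi (10762) in conditioned neuronal medium, its rise with Y27632, the rise of Bmp2 and both genes' differences between treatments kept direction and significance under every alternative run on these features. The counts of called BMP features are given next as total, higher and lower. They are out of 13 features, or out of 9 genes with gene means. The share of all features that passed also changed with the setting. In conditioned medium the main counts were 3, 1 and 2. They became 6, 3 and 3 in Cy3 alone, 8, 3 and 5 in Cy5 alone, 2, 1 and 1 with no dye term, with gene means and at 1 SD unit or more, and 1, 0 and 1 at 2 SD units or more. With Y27632 the main counts were 3, 2 and 1. They became 8, 6 and 2 in Cy3 alone, 7, 3 and 4 in Cy5 alone, and 1, 1 and 0 with no dye term, with no moderation and at 1 SD unit or more. At 2 SD units or more they were 0, 0 and 0, and with centred arrays, scaling by the median absolute deviation, robust moderation or gene means 4, 2 and 2. For the difference the main counts were 7, 2 and 5. They became 2, 1 and 1 with no dye term, 4, 1 and 3 with no moderation, 5, 1 and 4 with the other scaling, 4, 2 and 2 with gene means, and 1, 0 and 1 at 1 SD unit or more. Leaving out 1 array gave 3 to 5, 1 to 2 and 2 to 3 in conditioned medium (5 without replicate 2). With Y27632 it gave 1 to 5, 1 to 3 and 0 to 2 (1 without replicate 1, 5 without replicate 3). For the difference, a replicate number was left out, which removed 1 array of each experiment. The counts were then 3 to 7, 1 to 3 and 2 to 4 (3 without replicate 1, 4 without replicate 4). Among these, Smad6 with Y27632 passed only without replicate 3. Target features lower in conditioned medium were 17 of 22, beside 32.7% of all features. They were 11 with no dye term, beside 12.5% of all features, and 11 in Cy3 alone, beside 24.8%. They were 9 at 1 SD unit or more, and 14 to 16 with 1 array left out. With gene means 11 of 15 target genes were lower, beside 36.7% of all genes. The cause of these shifts was not tested.

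Signs turned mostly with 1 dye orientation. In conditioned medium, Cy5 alone gave -0.42 for Bmp4, -0.52 for Bmp6 (12774), -0.0385 for Bmp7 (33001), 0.83 and -0.082 for Bmpr1a (2117 and 37743) and -0.52 for Id2 (40030). Cy3 alone gave 0.16 for Bmp7 (11047), 0.0769 for Bmpr1b, -0.73 for Smad6 and 0.25 for Bambi (37662). With Y27632, Cy3 alone gave -0.31 for Bmp2, 0.63 for Bmp6 (12774), 0.0433 for Bmp7 (33001), -1.36 for Bmpr1a (2117), 0.52 for Nog, 0.093 for Id1 (9640), -0.30 for Id3 and -0.56 for Id4 (2799). Cy5 alone gave 0.41 for Smad6, -0.77 for Bambi (37662) and -0.41 for Id4 (29662). With 1 array left out, values ranged in conditioned medium from -0.0045 to 0.12 for Bmp7 (33001) and from -0.18 to 0.0204 for Bambi (37662). With Y27632 they ranged from -0.10 to 0.21 for Bambi (37662), from -0.16 to 0.20 for Id1 (9640), from -0.35 to 0.48 for Id3 and from -0.0039 to 0.12 for Id4 (29662). Of the means over all 6 arrays whose sign turned in these ways, those of Id2 (40030) in conditioned medium and Smad6 with Y27632 had passed the test.

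The replicate numbers share only a number: deviations of same-numbered arrays correlated with r from -0.05 to 0.08, and with the replicate block 6 features differed between treatments (2 higher, 4 lower). Alternatives for the target list were chosen after seeing the data. Robust moderation was not run for the difference. The spread between cultures is unknown, and 9 Bambi features have no value. In Bambi, Bmp6, Id1 and Id2 a feature did not follow another that had passed, in at least 1 experiment. Of the 2 features of Bmpr1a only 37743 passed, with Y27632, and those of Bmp7 passed in neither experiment.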
